A study of Mus musculus with 703 samples.

Results

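The enzymes and regulators of de novo lipogenesis, the making of fatty acids from acetyl-CoA, were examined in gastrocnemius muscle of CC-RIX mice, the F1 offspring of crosses between Collaborative Cross inbred lines. The members were the 10 genes Fasn, Acly, Elovl6, Thrsp, Acaca, Scd1, Me1, Srebf1, Mlxipl and Acss2, taken by symbol from the 19088 genes of the deposited count table, and all 10 passed the filter on low counts. The data were polyA RNA-seq libraries, 1 per mouse, from 20 strains and both sexes. Mice ate a control diet labelled 10% fat + fiber or a high-fat, high-sugar diet labelled 44% fat + fiber from 6 weeks of age. Untreated mice numbered 400 in a lower and 69 in an upper range of sequencing identifiers, 235 of them on 44% fat, with the sexes nearly equal on each diet. Treated mice drank metformin at 5 mg/mL from 7 months of age and comprised 57 females and 59 males on 10% fat and 59 females and 59 males on 44% fat. All carry the genotype label Outbred, although each strain is a cross of inbred lines. Treated mice belonged to the 12-month cohort, whereas untreated mice belonged to the 6-month or the 12-month cohort, and the labels give no age, so metformin and age cannot be told apart.

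Lipogenesis begins with citrate exported from mitochondria, which ATP citrate lyase (Acly) splits into cytosolic acetyl-CoA. Acetyl-CoA synthetase 2 (Acss2) makes the same metabolite from acetate, and malic enzyme 1 (Me1) supplies NADPH. Acetyl-CoA carboxylase alpha (Acaca) forms malonyl-CoA, fatty acid synthase (Fasn) builds palmitate, Elovl6 lengthens it and Scd1 introduces a double bond. The transcription factors SREBP1 (Srebf1) and ChREBP (Mlxipl) drive these genes in response to insulin and to glucose, and Thrsp (Spot 14) is a small protein induced along with them. Liver and adipose tissue are the classical sites of the pathway, muscle fibres express it weakly, and polyunsaturated fat in the diet is known to lower it.

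Several properties of the libraries bear on these genes. Total counts ranged from 27.37 to 96.1 M per library, with a median of 47.88 M, where M stands for 1000000 counts. The 10 skeletal muscle markers summed to 102400 to 191100 counts per M library counts (CPM, scaled by edgeR's TMM factors), as the tissue label requires. The 12 adipocyte markers summed to 87.55 to 1943 CPM. Brown adipocyte markers (Ucp1, Cidea and Elovl3) exceeded 10 times the median library in 44 libraries, and hepatocyte markers did so in 98. In 15 libraries the Xist level did not match the labelled sex. The lower identifier range held 544 libraries and the upper 159, and range was a term in every fit.

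The promoters of the 4 members with the largest diet differences are shown. RefSeq promoter entries (GRCm38.p6) were found for 9 of the 10 members. The 250 bases before the annotated start are printed 5′ to 3′ on the gene's strand, with motif matches in capitals. The CCAAT box bound by NF-Y and the GC box GGGCGG bound by Sp1, both partners of SREBP on lipogenic promoters, were searched on both strands together with the E-box CACGTG and the sterol response element TCACNCCAC.
Fasn, chr11:120824548-120824797, minus strand: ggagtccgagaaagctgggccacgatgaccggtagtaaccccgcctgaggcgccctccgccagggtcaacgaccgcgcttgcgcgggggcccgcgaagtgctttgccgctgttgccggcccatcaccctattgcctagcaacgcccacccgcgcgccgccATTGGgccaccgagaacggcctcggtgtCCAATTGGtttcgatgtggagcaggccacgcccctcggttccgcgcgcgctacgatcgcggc
Thrsp, chr7:97417551-97417800, minus strand: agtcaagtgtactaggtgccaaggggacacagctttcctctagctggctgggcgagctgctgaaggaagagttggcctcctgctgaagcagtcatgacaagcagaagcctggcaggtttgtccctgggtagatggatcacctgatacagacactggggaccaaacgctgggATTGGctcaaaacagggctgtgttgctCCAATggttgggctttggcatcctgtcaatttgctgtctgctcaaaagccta
Acly, chr11:100528001-100528250, minus strand: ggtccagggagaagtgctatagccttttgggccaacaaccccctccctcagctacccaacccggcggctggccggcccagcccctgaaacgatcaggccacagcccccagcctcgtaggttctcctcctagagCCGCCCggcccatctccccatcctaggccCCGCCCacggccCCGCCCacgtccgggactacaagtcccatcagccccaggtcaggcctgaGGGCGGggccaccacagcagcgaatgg
Elovl6, chr3:129532136-129532385, plus strand: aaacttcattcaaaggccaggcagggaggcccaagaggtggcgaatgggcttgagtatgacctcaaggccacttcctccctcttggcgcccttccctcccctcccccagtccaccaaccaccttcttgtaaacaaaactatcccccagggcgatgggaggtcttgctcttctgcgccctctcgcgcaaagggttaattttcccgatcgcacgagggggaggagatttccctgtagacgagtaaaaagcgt
The Fasn window held CCAAT boxes beginning 90, 62 and 59 bases before the start, of which the last 2 overlap on opposite strands. Thrsp held CCAAT boxes at 79 and 52 bases, and Acly held 4 GC boxes, the nearest 3 of them at 88, 76 and 27 bases. None of the 4 motifs was in the Elovl6 window. Nor was any in the window of Acaca, which lies inside the annotated gene and is not shown, although Acaca moved with these transcripts (r = 0.933 with Acly after adjustment). The 9 members with an entry had 13 windows, of which 7 held a CCAAT box and 6 a GC box, against 33.8% and 32.7% of 32851 mouse promoter windows of this length. Some genes gave more than 1 window. Counted by gene, 6 of the 9 held a CCAAT box and 5 a GC box, and no difference from the shares over all promoters was tested. The E-box (6.02% of promoters) and the sterol response element (1.05%) were each found in 1 of the 13 windows, in Mlxipl.

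The 10 transcripts differed widely in abundance. As median CPM per kilobase of exon over all libraries, Scd1 was highest at 110.7, followed by Me1 at 71.5. Srebf1 (8.69), Mlxipl (8.33) and Fasn (7.93) lay close together, then Acly (3.97), Thrsp (3.22), Acss2 (3.11) and Acaca (2.47). Elovl6 was lowest at 0.390. In the deposited annotation (GRCm38) chromosome 11 carries 4 of the genes, namely Fasn (ENSMUSG00000025153, chr11:120805846-120824547), Acly (ENSMUSG00000020917, chr11:100476353-100528000), Acaca (ENSMUSG00000020532, chr11:84129672-84401651) and Srebf1 (ENSMUSG00000020538, chr11:60199089-60222581). Elovl6 (ENSMUSG00000041220) lies at chr3:129532355-129638495, Thrsp (ENSMUSG00000035686) at chr7:97412938-97417730, Scd1 (ENSMUSG00000037071) at chr19:44394451-44407709 and Me1 (ENSMUSG00000032418) at chr9:86581371-86695953. Mlxipl (ENSMUSG00000005373) lies at chr5:135089890-135138382 and Acss2 (ENSMUSG00000027605) at chr2:155517948-155585724. Other genes overlap 9.12% of the Acss2 exon bases, 4.24% of those of Mlxipl and 3.11% of those of Srebf1, so part of those counts is uncertain. The other members share less than 1% each.

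**Figure D1:**
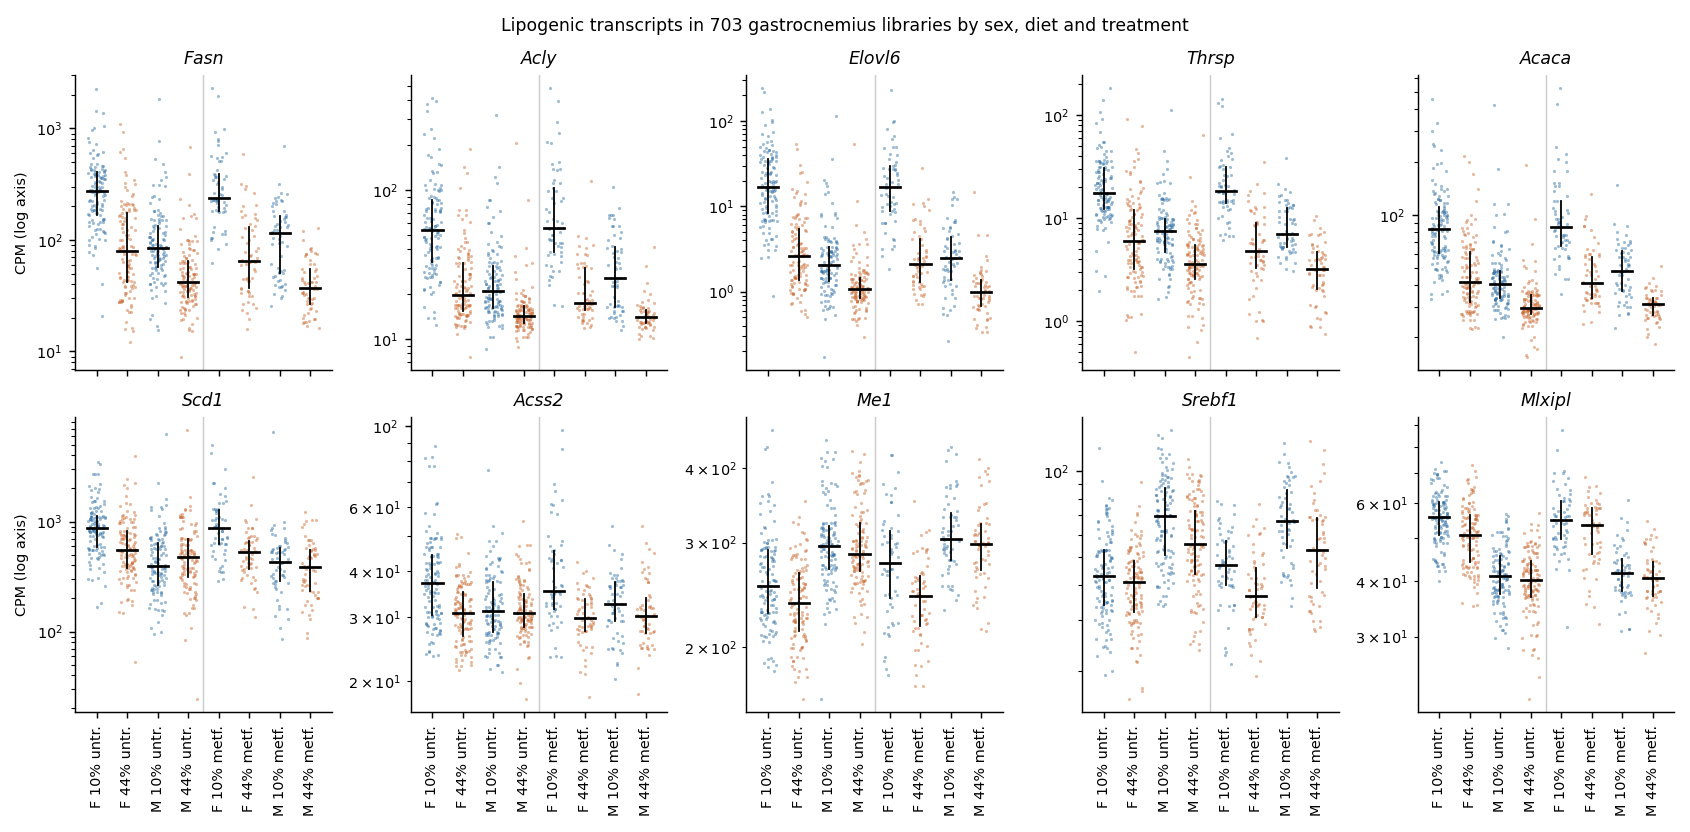
Level of each lipogenic transcript in every library (CPM, log axis), by sex (F, M), diet and treatment. Points are mice, horizontal bars are medians and vertical bars run from the lower to the upper quartile. Elovl6 had a median of 17.03 CPM in untreated females on 10% fat and 1.08 CPM in untreated males on 44% fat.

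The first comparison asked how the high-fat, high-sugar diet changed these genes in untreated mice. A gene was called when its p, adjusted over all genes tested, was under 0.05 in edgeR's quasi-likelihood test. All 10 members were called lower on 44% fat, where 18.3% of the 16384 genes tested were called in either direction, with 8.81% called lower and 9.5% called higher. The differences were large for Elovl6, Fasn, Thrsp, Acly and Acaca and small for the transcription factors and the acetate and NADPH enzymes. A lower level in bulk tissue can mean fewer expressing cells or less RNA per cell, which cannot be told apart.

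Among the enzymes that build the fatty acid, Fasn had a median of 150.3 CPM (range 15.7 to 2253) on 10% fat and 51.7 CPM (9.01 to 1090) in 235 mice on 44% fat. It was 2.38-fold lower, a log2 difference of -1.25 ± 0.11 (SE; adjusted p = 2.7e-25, edgeR). The diets overlapped, with 18.3% of the mice on 44% fat above the 10% fat median. Acaca, which makes the malonyl-CoA that Fasn consumes, went from a median of 55.8 CPM (20.0 to 455) to 33.3 CPM (15.6 to 217), and its log2 difference was -0.72 ± 0.06.

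Elovl6, the elongase that acts on palmitate, had the largest fitted difference in edgeR. Its median was 5.83 CPM (0.174 to 243) on 10% fat and 1.42 CPM (0.298 to 53.2) on 44% fat. It was 3.84-fold lower (log2 difference -1.94 ± 0.14, adjusted p = 7.8e-34), which was the largest absolute log2 difference among the 16384 genes. On the authors' variance-stabilised values, in which low counts are compressed, the order turned, with Fasn at -1.22 and Elovl6 at -1.03 (limma). Of the mice on 44% fat, 12.8% lay above the 10% fat median. Fasn, Thrsp, Acly and Acaca ranked 6, 9, 14 and 35 by the same measure. Scd1, the desaturase, moved far less: 621 CPM (94.5 to 6211) against 502 CPM (24.4 to 6731), a log2 difference of -0.27 ± 0.08 (adjusted p = 0.0119). Its call was lost without the libraries high in hepatocyte markers (adjusted p = 0.111).

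Of the genes that supply acetyl-CoA and NADPH, Acly fell from a median of 32.3 CPM (8.59 to 413) to 16.2 CPM (7.63 to 205), 2.08-fold, with a log2 difference of -1.05 ± 0.09. Acss2 (33.2 against 30.6 CPM, log2 -0.17 ± 0.03) and Me1 (280 against 267 CPM, log2 -0.07 ± 0.02) differed little in size, although both were called.

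Of the regulators, Thrsp fell 2.34-fold, from 11.4 CPM (1.65 to 185) to 4.42 CPM (0.449 to 91.2), with a log2 difference of -1.23 ± 0.10. The transcripts of the transcription factors moved less, Srebf1 from 52.7 to 46.5 CPM (log2 -0.20 ± 0.04) and Mlxipl from 48.7 to 44.3 CPM (log2 -0.08 ± 0.02). For Scd1, Me1, Srebf1, Mlxipl and Acss2, 33.2% to 37.9% of mice on 44% fat lay above the 10% fat median.

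The spread among mice on the same diet was itself wide. On 10% fat the 90th percentile of Elovl6 was 35.7 times the 10th, against 9.55 times on 44% fat. The same ratio for Acly was 6.75 on 10% fat and 3.09 on 44% fat, whereas for Fasn it was 8.89 and 8.30. Me1 (1.62 and 1.63), Mlxipl (1.68 and 1.64) and Acss2 (1.87 and 1.56) varied least.

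Most adipocyte transcripts moved the other way. Of 12 adipocyte markers 7 were higher on 44% fat (Lep, Trarg1, Cidec, Lipe, Adipoq, Plin1 and Fabp4) and 3 were lower (Cfd, Retn and Adrb3), with a median log2 difference of 0.19. With the adipocyte level (mean log2 CPM of the 12 markers) as a covariate the diet difference was -2.12 for Elovl6, -1.41 for Fasn, -1.36 for Thrsp, -1.13 for Acly, -0.77 for Acaca and -0.40 for Scd1. Brown-marker-high libraries numbered 15 on 10% fat and 17 on 44% fat, and without them the differences were -1.92 for Elovl6 and -1.26 for Fasn. Within the lower identifier range alone all 10 members and 15.7% of genes were called, with Elovl6 at -1.90 and Fasn at -1.23. In the upper range, with 69 untreated mice, 1.79% of genes were called. Of the members 5 were called there (Elovl6 -2.15, Thrsp -1.32, Fasn -1.31, Acly -1.16 and Acaca -0.70).

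**Figure D2:**
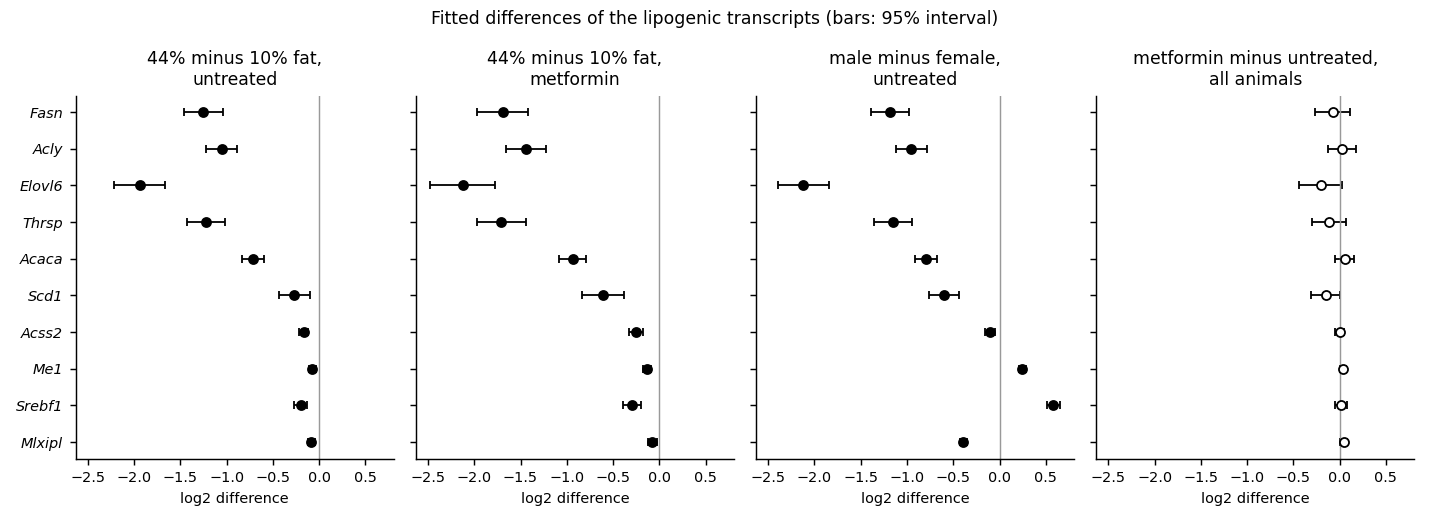
Fitted log2 differences of the 10 transcripts for diet in untreated mice, diet in metformin-treated mice, sex in untreated mice, and metformin in all mice. Bars are 95% intervals, and filled points passed an adjusted p of 0.05 over all genes. All diet differences were negative, from -1.94 for Elovl6 to -0.07 for Me1 in untreated mice, and no member was called for metformin.

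The other genes of the pathway gave a mixed picture. Of 37 tested genes from a list of 40, 15 fell and 6 rose on 44% fat, with a median log2 difference of -0.06 against -0.0024 for all genes. Of 8 genes of carbon and NADPH supply 6 fell, among them the mitochondrial citrate carrier Slc25a1 (log2 -0.78 ± 0.09), transketolase Tkt (-0.73 ± 0.08) and acetoacetyl-CoA synthetase Aacs (-0.57 ± 0.06). Of 8 elongases, desaturases and partner enzymes 5 fell, including Scd2 (-0.41 ± 0.05). Both genes of malonyl-CoA turnover rose, the malonyl-CoA decarboxylase Mlycd by 0.30 ± 0.03 and the mitochondrial carboxylase Acacb by 0.07 ± 0.02. Gpam, which starts glycerolipid synthesis, rose by 0.19 ± 0.02. Srebf2, the paralog that governs cholesterol synthesis, fell by 0.10 on the log2 scale, and the Thrsp paralog Mid1ip1 was not called (-0.09 ± 0.04, adjusted p = 0.126).

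The diet difference was larger in females for several members. In females, the median of Elovl6 was 17.03 CPM (0.886 to 243) on 10% fat and 2.61 CPM (0.511 to 53.2) on 44% fat. In males it was 2.03 CPM (0.174 to 115.5) and 1.08 CPM (0.298 to 53.1). The diet-by-sex term, male minus female, was 1.24 ± 0.27 on the log2 scale for Elovl6 (adjusted p = 0.00699), 0.68 ± 0.16 for Scd1 (0.0251) and 0.29 ± 0.05 for Acss2 (1.1e-04). These 3 of 10 members were called where 0.226% of genes were, and limma voom called 5 of the 10 and 0.317% of genes.

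The median of Scd1 moved in opposite directions in the sexes. It went from 873 to 555 CPM in females and from 398 to 472 CPM in males. In females alone its diet difference was -0.61, and in males alone it was 0.11 and not called (adjusted p = 0.665). Males alone gave 6 called members, where 11.4% of genes were called. All 6 were lower (Elovl6 -1.19, Thrsp -1.04, Fasn -1.02, Acly -0.72, Acaca -0.50 and Srebf1 -0.26). Slc25a1 (0.76 ± 0.17) and Pgd (0.30 ± 0.07), which supply citrate and NADPH, were the only 2 other pathway genes called for this term in edgeR. In the lower identifier range alone the term was called for Acss2 and not for Elovl6 (adjusted p = 0.0950) or Scd1 (0.116). Without the hepatocyte-high libraries the call for Scd1 was lost as well (0.0696).

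The same diet comparison was made in the metformin-treated mice, which are different animals. All 10 members were again lower on 44% fat, where 5.73% of 16418 genes were called lower and 4.82% higher. Fasn had a median of 179.8 CPM (25.8 to 2306) on 10% fat and 45.6 CPM (15.8 to 586) on 44% fat, a log2 difference of -1.70 ± 0.14. Elovl6 went from 5.99 CPM (0.263 to 233) to 1.33 CPM (0.333 to 28), a difference of -2.13 ± 0.18. Thrsp (-1.71 ± 0.13), Acly (-1.44 ± 0.11), Acaca (-0.94 ± 0.07) and Scd1 (-0.61 ± 0.12) followed. The remaining differences were -0.29 for Srebf1, -0.25 for Acss2, -0.13 for Me1 and -0.08 for Mlxipl, whose adjusted p was 0.0456. The call for Mlxipl was lost in 8 of 10 alternatives, among them DESeq2 size factors (0.0542) and the set without hepatocyte-high libraries (0.205).

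Brown-marker-high libraries were unequal between the treated diets, 9 on 10% fat and 3 on 44% fat, and Ucp1 was lower on 44% fat (log2 -2.34, adjusted p = 3.7e-05). Without these libraries 9 members and 11.5% of genes were called, with Elovl6 at -1.91, Fasn at -1.56 and Scd1 at -0.48. In the upper identifier range alone, 6 members and 4.22% of genes were called, and Scd1 was at -0.09 (adjusted p = 0.874). Of the pathway list 19 genes fell and 3 rose, again with Slc25a1 (-1.20 ± 0.11), Tkt (-1.05 ± 0.09) and Aacs (-0.72 ± 0.08) as the genes with the largest falls. Mid1ip1 was also lower (-0.17 ± 0.05).

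Sex changed the members in both directions. In untreated mice all 10 were called, where 65.1% of all genes were, 35.6% lower and 29.4% higher in males. Elovl6 was 4.34-fold lower in males (log2 -2.12 ± 0.14). Fasn (-1.18 ± 0.11), Thrsp (-1.15 ± 0.10), Acly (-0.95 ± 0.09), Acaca (-0.80 ± 0.06), Scd1 (-0.60 ± 0.08), Mlxipl (-0.39 ± 0.02) and Acss2 (-0.10 ± 0.03) were also lower. On 10% fat the median of Fasn was 274.9 CPM (20.9 to 2253) in females and 84.6 CPM (15.7 to 1825) in males. The ranges overlapped throughout.

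Srebf1 and Me1 went the other way. Srebf1 had a median of 42.8 CPM (19.3 to 121) in females and 69.9 CPM (33.8 to 139) in males on 10% fat, and its difference was 0.58 ± 0.04. Me1 was 253.9 CPM in females and 296.2 CPM in males on 10% fat (difference 0.25 ± 0.02). Mlxipl, in contrast, was 55.7 CPM (40.1 to 74.03) in females and 40.99 CPM (28.2 to 56.6) in males on 10% fat, so the transcripts of the 2 lipogenic transcription factors differed by sex in opposite directions.

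Adipocyte markers moved with the sexes as well. Of 12 markers 10 were lower in males and 1, Lep, was higher, and summed adipocyte CPM had group medians of 244.8 to 263.3 in females and 176.0 to 212.3 in males. With the adipocyte level as a covariate the sex difference was -1.45 for Elovl6, -0.58 for Thrsp, -0.55 for Fasn, -0.50 for Acly and -0.43 for Acaca. For Scd1 it was -0.01 (adjusted p = 0.861) and for Acss2 -0.01 (0.846), neither called. Srebf1 (0.61), Me1 (0.27) and Mlxipl (-0.42) had values close to those without the covariate. Of the pathway list 21 genes were lower in males and 10 higher, with Pnpla3 (-0.82 ± 0.08), Tkt (-0.82 ± 0.08) and Slc25a1 (-0.73 ± 0.09) lowest and Tecr (0.39 ± 0.02) and Me2 (0.30 ± 0.03) among those higher.

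All 10 members differed among the 20 strains, but so did 93% of all genes. Strain means of log2 CPM spanned 2.38 for Thrsp, from 1.46 in CC002/UncJ x CC043/GeniUncJ to 3.84 in CC051/TauUncJ x CC019/TauUncJ. The span was 2.35 for Elovl6 and 1.86 for Fasn, both lowest in CC002/UncJ x CC043/GeniUncJ and highest in CC004/TauUncJ x CC019/TauUncJ. Fasn in those strains had a median of 39.8 CPM (15.7 to 254) and 198.7 CPM (28.2 to 974). Scd1 spanned 1.48, Acly 1.23, Acaca 1.06, Srebf1 1.04, Me1 0.62, Acss2 0.57 and Mlxipl 0.36. When strains were put in order, none of the 19 neighbouring pairs lay further apart than the smaller of their SDs, for any member. The median SD within strains was 1.39 for Fasn and 0.21 for Me1. Since 19 gaps share each span, small gaps were likely in any case, and the check cannot show whether strains form groups.

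The share of variance of log2 CPM in untreated mice set the members apart. Diet took 20.8% for Thrsp, 20.3% for Elovl6, 20.0% for Fasn, 18.9% for Acly and 17.7% for Acaca, against 1.37% for Scd1 and a median of 0.0587% over all genes. Strain took 30.97% for Me1, 27.8% for Srebf1 and 25.7% for Acss2, against a median of 14.4%. Scd1 was at that median, and the other members were below it: Thrsp 13.8%, Fasn 9.37%, Acaca 7.36%, Mlxipl 7.28%, Elovl6 7.13% and Acly 5.3%. Sex took 42.8% for Mlxipl, 29.1% for Elovl6 and 24.5% for Srebf1, against a median of 1.42%. The strain CC009/UncJ x CC013/GeniUncJ occurred in the upper identifier range alone. In the lower range the shares for Thrsp were 19.7% for diet and those for Me1 30.4% for strain.

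Every strain had lower Fasn, Acly, Elovl6, Thrsp and Acaca on 44% fat, 20 of 20 in untreated mice and 19 of the 19 strains with both sexes and diets in treated mice. The strain differences in Fasn ran from -2.27 in CC043/GeniUncJ x CC042/GeniUncJ, with means of 239.9 CPM in 13 mice on 10% fat and 42.7 CPM in 12 mice on 44% fat, to -0.12 in CC051/TauUncJ x CC019/TauUncJ, with 219.0 and 204.9 CPM in 12 mice each. Thrsp was also least changed in that strain (-0.17), as was Acly (-0.09). In the treated mice of that strain the Fasn difference was -1.45. Elovl6 differed by -3.10 in CC012/GeniUncJ x CC002/UncJ and by -0.70 in CC009/UncJ x CC013/GeniUncJ.

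The other members were lower in fewer strains of untreated mice: Srebf1 in 18, Me1 and Acss2 in 17, Mlxipl in 15 and Scd1 in 14. Scd1 was higher on 44% fat by 1.10 in CC019/TauUncJ x CC042/GeniUncJ, whose 44% fat mice include the library with the highest Scd1, which also held 181.2 CPM of Ucp1. In the treated mice of that strain the Scd1 difference was -0.70, and this contrast was not tested either. A test of the diet-by-strain terms called 7 members (Thrsp, adjusted p = 2.3e-05; Elovl6, 5.5e-05; Fasn, 5.8e-04; Acly, 0.00249; Acss2, 0.00482; Scd1, 0.0129; Acaca, 0.0330) where 3.25% of genes were called. It did not call Mlxipl (0.603), Srebf1 (0.702) or Me1 (0.947). However, limma voom called 0 of the 10, with adjusted p = 0.143 for Fasn and 0.519 for Elovl6, so these calls were made by edgeR and not by both tools. Without the hepatocyte-high libraries 5 were called, as were 2.19% of genes. The same term was called for 8 of 12 adipocyte markers (Lep, adjusted p = 2.2e-05; Plin1, 0.00389), for 3 of 3 brown adipocyte markers (Ucp1, 2.7e-10) and for 9 of 9 tested hepatocyte markers (Alb, 6.3e-08), and their part in the members' calls was not tested.

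**Figure D3:**
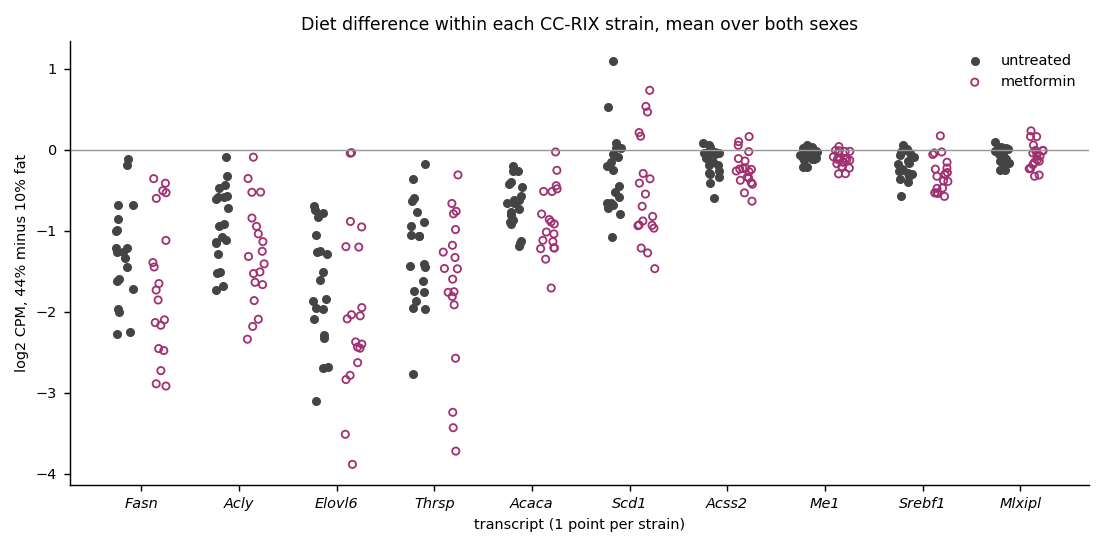
Diet difference of each transcript within each CC-RIX strain (log2 CPM, 44% minus 10% fat, mean over both sexes), 1 point per strain. Filled points are untreated mice (20 strains) and open points metformin-treated mice (19 strains). All points of Fasn, Acly, Elovl6, Thrsp and Acaca lie below 0, and those of Scd1 reach 1.10 in untreated mice.

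In a fit of all mice with range as a term, treated and untreated mice differed little in these transcripts. The ranges were unequal between them, with 144 treated mice in the lower and 90 in the upper range, against 400 and 69 untreated. None of the 10 members was called (edgeR), where 16.2% of 17740 genes were (6.99% higher and 9.19% lower), and 3 members were at an unadjusted p under 0.05 (Scd1, Me1 and Mlxipl) against 28.9% of all genes. DESeq2 called 0 members and 17.5% of genes, and limma voom called 1 member, Scd1, and 15.5% of genes. Fasn had a median of 87.4 CPM (9.01 to 2253) in untreated mice and 84.02 CPM (15.8 to 2306) in treated mice, a log2 difference of -0.08 with a 95% interval of -0.26 to 0.11. Elovl6 had medians of 2.61 CPM (0.174 to 243) and 2.38 CPM (0.263 to 233), and a difference of -0.20 (-0.44 to 0.03). Scd1 had medians of 555 CPM (24.4 to 6731) and 525 CPM (85.8 to 6464), and a difference of -0.15 ± 0.08 (adjusted p = 0.173). Scd1 was called lower without the hepatocyte-high libraries (-0.27, adjusted p = 0.0113). In the lower identifier range Fasn was at -0.22, Thrsp at -0.25 and Elovl6 at -0.32. In the upper range they were at 0.27, 0.20 and 0.07, and none of these values was called. Scd1, Srebf1 and Mlxipl kept the same sign in both ranges.

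The remaining intervals for metformin were as follows. They ran from -0.30 to 0.06 for Thrsp, -0.13 to 0.17 for Acly, -0.05 to 0.16 for Acaca, -0.05 to 0.08 for Srebf1 and -0.05 to 0.05 for Acss2. Mlxipl (0.04 ± 0.02, adjusted p = 0.0750) and Me1 (0.04 ± 0.02, 0.0951) were slightly higher in value, and Me1 was called higher in the lower identifier range alone (0.07, adjusted p = 0.00194). Adipocyte markers fell with treatment for 5 of 12 and rose for none. With the adipocyte level as a covariate Fasn was at 0.13 and Elovl6 at 0.06, and Acaca was called higher (0.16). Of the pathway list, 10 genes fell and 1 rose, with Dgat2 (-0.20 ± 0.05) and Fads2 (-0.20 ± 0.06) among those that fell and Tecr (0.06 ± 0.02) higher.

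The metformin difference did not pass a test of dependence on diet for any member (0 of 10 in edgeR and in limma voom), although 5 members had an unadjusted p under 0.05, as did 7.41% of all genes. After adjustment only 0.00564% of genes were called, which is 1 gene. The terms, in which a negative value means a larger fall on 44% fat with metformin, were -0.51 ± 0.17 for Thrsp (adjusted p = 0.438), -0.42 ± 0.18 for Fasn (0.544), -0.38 ± 0.14 for Scd1 (0.481), -0.38 ± 0.14 for Acly (0.481) and -0.21 ± 0.10 for Acaca (0.631). For sex, 0 of 10 were called by edgeR and by limma voom, with 0 at an unadjusted p under 0.05, where 1.83% of genes were called, 0.547% with a positive and 1.28% with a negative term. For strain, Scd1 alone was called (adjusted p = 0.00642), where 8.81% of genes were, a share near that of the members. Limma voom called 0, as did edgeR without the hepatocyte-high libraries. This term was also called for 11 of 12 adipocyte markers (Retn, adjusted p = 3e-17) and for 3 of 3 brown adipocyte markers (Ucp1, 1.9e-09).

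The members were then set against adipocyte transcripts, since fat between and around muscle fibres expresses this pathway strongly. Within untreated mice and at fixed strain, sex, diet and range, Elovl6 rose by 1.37 ± 0.07 on the log2 scale per log2 unit of adipocyte level, Scd1 by 1.21 ± 0.03, Fasn by 1.18 ± 0.05, Thrsp by 1.01 ± 0.05, Acly by 0.82 ± 0.05 and Acaca by 0.62 ± 0.03. Acss2 rose by 0.17 ± 0.02 and Me1 by 0.04 ± 0.01. Mlxipl fell by 0.05 (adjusted p = 0.0104), and Srebf1 was not called (0.05 ± 0.03, adjusted p = 0.188). The 8 members called higher compare with 22% of all genes, and the 1 called lower with 22.5%. In the upper identifier range alone 4 members were called, as were 12.1% of genes.

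**Figure D4:**
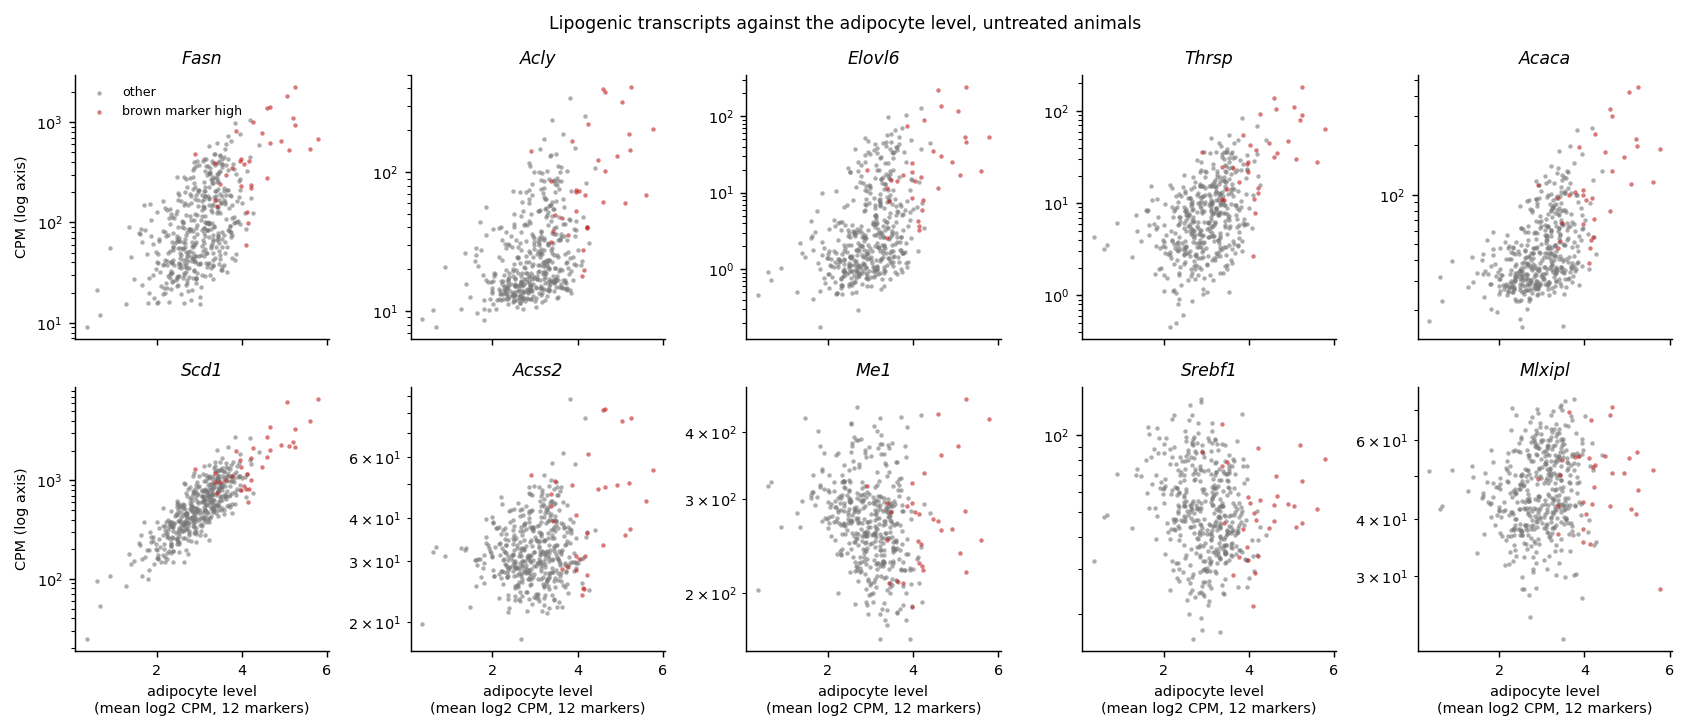
Level of each transcript (CPM, log axis) against the adipocyte level (mean log2 CPM of 12 adipocyte markers) in untreated mice, 1 point per mouse. Red points are the 32 libraries high in brown adipocyte markers, which lie towards the upper right for most enzymes. Scd1 follows the adipocyte level most closely (r = 0.840 after adjustment), and Srebf1 shows little relation (r = 0.0688).

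Correlations of the residuals over the untreated mice set the enzymes apart from Me1 and the transcription factors. Scd1 had the highest (Pearson r = 0.840, Spearman rho = 0.764), followed by Fasn (0.659, 0.536), Acaca (0.603, 0.449), Thrsp (0.556, 0.431), Elovl6 (0.541, 0.410), Acly (0.529, 0.374) and Acss2 (0.346, 0.210). For these 7 every permutation p was 1e-05, the smallest that the permutations can give, and adjusted p was 3e-05 for r and 4.3e-05 for rho over 60 relations. Me1 (0.0970, 0.0147) and Srebf1 (0.0688, 0.0136) did not pass (adjusted p = 0.063 and 0.19 for r). Mlxipl was weakly negative (-0.142, -0.167, adjusted p = 0.0043 for r). An r above 0.5 was reached by 6 members and by 1.42% of the 16384 genes.

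Leaving out the 2 mice farthest from the median adipocyte level gave 0.824 for Scd1, 0.645 for Fasn, 0.530 for Elovl6, 0.510 for Acly and 0.0327 for Me1. Within the lower range r was 0.857 for Scd1, 0.679 for Fasn and 0.566 for Elovl6, and within the upper range 0.696, 0.474 and 0.270. In treated mice it was 0.757, 0.566 and 0.475. Mlxipl was at -0.421 in the upper range and 0.121 in treated mice, so its sign was not stable.

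Brown adipocyte transcripts moved with these relations, and their part in them was not tested beyond the values that follow. The library with the highest value held 61.2 to 191 CPM of Ucp1 for 9 of the 10 members, the exception being Srebf1 (0.578 CPM of Ucp1). These are not separate observations: Fasn, Acly and Acaca shared the same library, as did Elovl6, Thrsp and Me1, and also Mlxipl and Acss2. The libraries for Fasn, Acly, Acaca, Mlxipl and Acss2 came from metformin-treated mice, outside the untreated correlations. Without the 32 brown-marker-high untreated libraries r was 0.782 for Scd1, 0.499 for Fasn, 0.370 for Acaca, 0.335 for Thrsp, 0.316 for Elovl6, 0.300 for Acly and 0.131 for Acss2. The mean level of the 10 members correlated with the adipocyte level at r = 0.632 (95% interval 0.574 to 0.683), and at 0.441 without those libraries. It was 0.573 on 10% fat and 0.717 on 44% fat. Over the 20 strain means, described without a test because the points share libraries and range, r was 0.895 for Scd1, 0.609 for Fasn, 0.561 for Acaca and -0.186 for Me1.

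The members did not all move with each other. The residuals of Acly and Acaca correlated at r = 0.933, Fasn and Acaca at 0.917 and Fasn and Acly at 0.908, so mice high in one enzyme of the route from citrate to palmitate were high in the others. Acss2 correlated with Acly at 0.793 and Scd1 with Fasn at 0.844. Srebf1 and Me1 correlated with each other at 0.491, and the mean r of each with the other members was 0.249 and 0.269. Mlxipl had a mean r of -0.01 and was negatively related to Me1 (-0.327). These values are descriptions over mice that share library depth and scaling.

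The genes outside the 10 with the pattern most like them, ranked by mean r with the members over the untreated mice among 10081 genes with a mean log2 CPM above 1, were Tkt (0.657), Slc25a1 (0.648), Agpat2 (0.636), Slc25a10 (0.590), Pygl (0.583), Pgd (0.575), Insig1 (0.571), Aacs (0.540), Acat2 (0.539) and Fabp5 (0.535). Of these 10, 6 were on the pathway list and none was an adipocyte marker on the list used. Even so, Agpat2 and Slc25a1 rose with the adipocyte level, by 0.99 ± 0.04 and 0.97 ± 0.04 on the log2 scale per log2 unit. In the treated mice their mean r was 0.660 for Tkt, 0.655 for Slc25a1 and 0.650 for Agpat2.

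**Figure D5:**
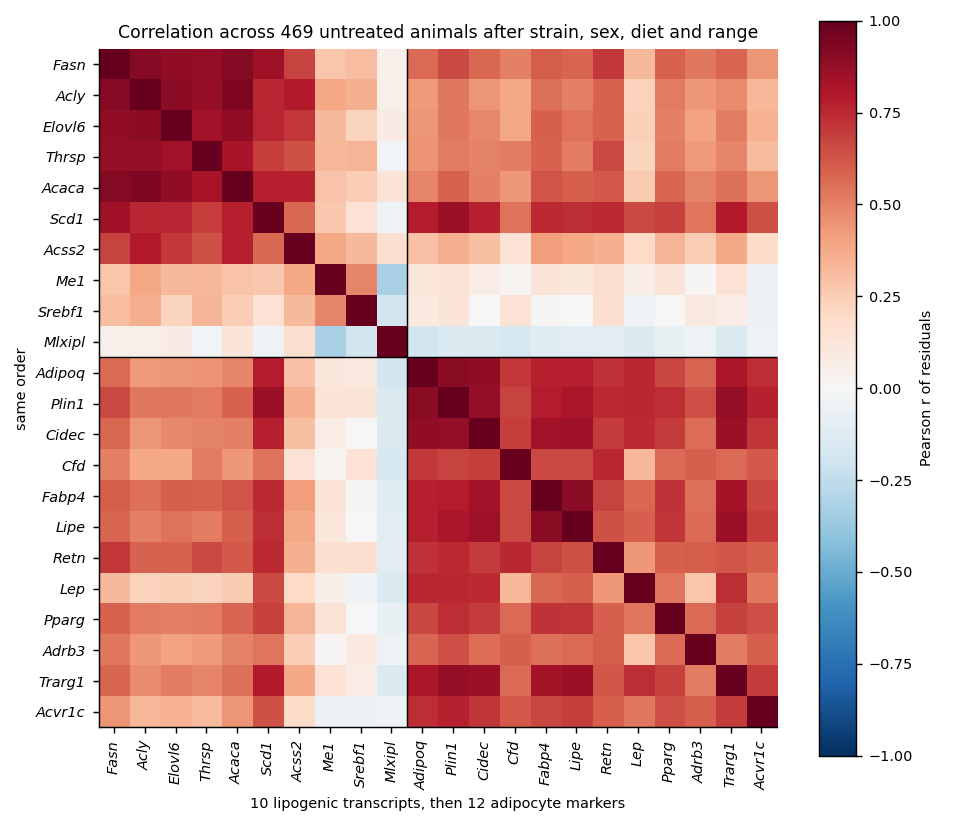
Pearson correlations over untreated mice, after removing strain, sex, diet and range, among the 10 lipogenic transcripts and 12 adipocyte markers. Fasn, Acly, Elovl6, Thrsp, Acaca and Scd1 form a block of high values (up to 0.933), Scd1 also correlates with the adipocyte markers, and Me1, Srebf1 and Mlxipl stand apart.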

How the data were processed

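Gastrocnemius RNA of 703 mice was profiled, 469 untreated (119 females and 115 males on 10% fat, 117 females and 118 males on 44% fat) and 234 given metformin, and strain, sex, diet and treatment came from the sample labels. Per the study's methods, polyA libraries were sequenced as paired ends and the authors quantified both reads with EMASE/GBRS against a transcriptome of the 8 founder strains. The deposited table holds estimated counts given as whole numbers for 19088 genes, after genes with a count in under 50% of the libraries had been removed (the smallest share found was 50.07%). A second deposited table holds variance-stabilised values on a log2 scale, made by the authors with DESeq2, and served only as an alternative. Whether the counting used strand was not given in the sources used here. The build is GRCm38 per the submitters' processing notes. Number of sample columns not used: 0.

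Counts were tested with edgeR 4.0.16 (R 4.3.3) by quasi-likelihood, with TMM scaling, filterByExpr over the 8 groups, and strain, sex, diet and identifier range as terms, plus treatment for all mice. The dispersion trend was fitted on every 5th gene by abundance. P-values were adjusted by Benjamini-Hochberg over all genes tested, called under 0.05. SE is the log2 difference divided by the square root of F. Levels are CPM, and log2 CPM used a prior count of 2. Alternatives used limma 3.58.1 (voom), DESeq2 1.42.0, other library sets and covariates, and the procedure was checked on simulated counts. Correlations used 1e+05 permutations over mice. Intervals and errors cover the spread between mice, with 1 library each and no technical repeats.

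The members and all lists were chosen with earlier results of these data known. Every member is named. Of the other pathway genes, the 3 called with the largest change in each direction are named for each comparison described, plus the paralogs of members, except 1 gene that is not reported here. The genes most like the members are the 10 with the highest mean r. The deposited tables hold no comparison columns.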

Additional observations from a re-analysis of the deposited data

Results flagged for a closer look

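Effects that differed between groups are listed here, each by a test of the difference itself. The diet difference differed between the sexes for Elovl6 (1.242 on the log2 scale, male minus female), Scd1 (0.6776) and Acss2 (0.2884), so that all 3 values were less negative in males or, for Scd1, above 0 (0.11 in males alone, not called). Limma voom called 5 members and 0.317% of genes for this term. In the lower identifier range alone 1 member, Acss2, and 0.0856% of genes were called.

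The diet difference was called by edgeR as differing among strains for 7 of 10 members, where 3.25% of genes were called. By adjusted p they were Thrsp 2.312e-05, Elovl6 5.528e-05, Fasn 0.0005779, Acly 0.002488, Acss2 0.004824, Scd1 0.01287 and Acaca 0.03295. Limma voom called 0 of these and 0.641% of genes. In edgeR 8 of 12 adipocyte and 3 of 3 brown adipocyte markers were called for the same term. Among untreated strains the SD of the diet difference was 0.71 for Elovl6, 0.64 for Thrsp and 0.61 for Fasn on the log2 scale. The difference between treated and untreated mice differed among strains for Scd1 (adjusted p = 0.006422), 1 of 10 members where 8.81% of all genes were called. That call was lost with limma voom and without the hepatocyte-high libraries, and 11 of 12 adipocyte markers were called for the same term.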

How the results depend on the processing

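Of 890 single-gene values recomputed, 794 kept their side of the threshold and, where signs were compared, their direction. Of the others 58 lost the call, 8 gained one and 30 changed sign, whether or not the call also changed. Signs were not compared for the tests over strains, which have no direction, or for the adipocyte level. The cause of these changes was not tested. In the upper identifier range alone (fewer samples), 5 members and 1.79% of all genes were called for diet in untreated mice. There were 6 members and 51.5% of genes for strain, 6 and 4.22% for diet in treated mice, and 4 and 12.1% for adipocyte level. Called pathway genes numbered 3 against 21 for diet in untreated mice. For diet in males alone 6 members and 11.4% of genes were called, with Scd1 at 0.11. For metformin, against 0 members and 16.2% of all genes, 1 member was called under each of 5 alternatives. Scd1 was lower with limma voom (15.5% of genes called) and without hepatocyte-high libraries (13.1%), and Me1 was higher in the lower range (18.8%). Acaca was higher with the adipocyte level as a covariate (12.3%) and with both adipocyte levels (12.4%). For diet by sex the count of members was 5 with limma voom (0.317% of genes) and 1 in the lower range (0.0856%), against 3 (0.226%). For diet by strain it was 0 with limma voom (0.641% of genes) against 7 (3.25%). For metformin by strain it was 0 with limma voom (2.85%) and 0 without hepatocyte-high libraries (5.36%) against 1 (8.81%). The correlation of mean levels was 0.392 in the upper range, 0.536 with Adipoq alone, 0.573 on 10% fat, 0.717 on 44% fat, 0.570 in treated mice and 0.441 without brown-high libraries.

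Signs for metformin changed as follows. Acss2 was at 0.00098 with DESeq2 size factors, 0.00079 with DESeq2 and 0.016 in females. In the lower range Acly was at -0.040 and Acaca at -0.0015. In the upper range Fasn was at 0.27, Elovl6 at 0.074, Thrsp at 0.20, Me1 at -0.046 and Acss2 at 0.036. Without hepatocyte-high libraries Acly was at -0.015 and Srebf1 at -0.016, and in males Srebf1 was at -0.029. With the adipocyte level Fasn was at 0.13, Elovl6 at 0.057, Thrsp at 0.050, Scd1 at 0.0096 and Acss2 at 0.026. With both levels Fasn was at 0.12, Elovl6 at 0.034, Thrsp at 0.033, Scd1 at 0.0057 and Acss2 at 0.022. Without brown-high libraries Fasn was at 0.027. For metformin by diet Mlxipl was at -0.011 in the lower range. For metformin by sex with limma voom, Fasn was at 0.0014, Acly at 0.041, Elovl6 at 0.16 and Acaca at 0.013.

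No paired analysis was possible because every label carries the same replicate number and 1 library comes from each mouse. The brown adipocyte alternatives were chosen after seeing the data. Calls over all genes that moved by over 1.5 times were, for diet in untreated mice, 297 in the upper range, 1501 in females and 1745 in males against 3001, and in treated mice 533 in the lower and 697 in the upper range against 1733. In the upper range they were 4003 for sex against 10664, 8554 for strain against 15231, 2002 for adipocyte level against 7299 and 1 for metformin against 2870, with 1237 in females and 1601 in males. In the lower range they were 14 for diet by sex against 37, 13 for metformin by diet against 1 and 151 for metformin by sex against 324, with 203 without hepatocyte-high libraries. With limma voom 0.641% of genes were called for diet by strain against 3.25%. The count was 0 for metformin by diet and 506 for metformin by strain against 1563, with 952 without hepatocyte-high libraries.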

Other observations

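Levels of the members in individual libraries with many brown adipocyte transcripts were high together. A female of CC011/UncJ x CC027/GeniUncJ on 10% fat held 2253 CPM of Fasn and 242.8 CPM of Elovl6 with 61.2 CPM of Ucp1, and 8 members had this library among their 10 highest. A metformin-treated female of CC042/GeniUncJ x CC040/TauUncJ on 10% fat held 1943 CPM of Fasn with 191.1 CPM of Ucp1. High libraries low in Ucp1 occurred too. A female of CC004/TauUncJ x CC019/TauUncJ on 10% fat held 974.2 CPM of Fasn and 102.6 CPM of Elovl6 with 0.698 CPM of Ucp1. That library also held 20.7 CPM of the hepatocyte marker Alb, where all hepatocyte markers summed to a median of 2.81 CPM over all libraries. The part of liver transcripts in its levels was not tested.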
